A study of Homo sapiens with 10 samples.

Results

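Sites occupied by the retinoic acid receptor RARα and by the coactivator MAML3 in retinoic acid (RA) were compared in the neuroblastoma line SK-N-SH, which is an established human cell line. Peaks of the 2 RARα and the 2 MAML3 lists from RA-treated cells were merged where they overlapped by 1 bp or more, which gave 9103 sites. A site with a peak in all 4 lists is called shared, one in both RARα lists and neither MAML3 list is called RARα-only, and one in both MAML3 lists and neither RARα list is called MAML3-only. These rules placed 458 sites (5.03% of all) in the shared class, 71 (0.78%) in the RARα-only class and 3811 (41.9%) in the MAML3-only class. The other 4763 sites (52.3%) met none of the rules, and 3971 sites (43.6%) were held by 1 list.

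The assay was ChIP-seq, in which chromatin is precipitated with an antibody and the recovered DNA is sequenced. For 24 hours before treatment all cells, controls included, grew in DMEM with 10% serum stripped with charcoal, which removes retinoids and steroids. They then received 1 µM RA or its vehicle (untreated), and there are 2 libraries for each antibody and treatment. Whether replicates were separate cultures, how long RA was applied and how deeply each library was sequenced are not stated by the labels. SK-N-SH is 1 cell line, so the lists describe that line alone. The RARα lists in RA held 1103 and 1064 peaks, and the MAML3 lists in RA held 7532 and 6230. In untreated cells the RARα lists held 1321 and 251 peaks and the MAML3 lists 2222 and 6759, so the 2 untreated lists of an antibody differed far more in length than the 2 lists in RA. By the tags in their names, the short untreated RARα list is marked as merged data and the 2 untreated MAML3 lists may be 1 library on separate lanes, which no label states. All sites are on the hg19 build and are numbered from 1.

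RARα is a nuclear receptor that binds DNA together with a retinoid X receptor, at pairs of a short hexamer, whether or not its ligand is present. Binding of RA exchanges corepressors for coactivators at these elements, and in neuroblastoma cells RA is known to slow growth and to start neuronal differentiation. MAML3 belongs to the mastermind-like coactivators, which do not bind DNA sequence themselves and are best known for joining the Notch intracellular domain on the DNA-binding protein RBPJ.

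An RA response element is shown here for the best-known direct targets of RARα, RARB and CYP26A1, since each lies in a region where a shared site was found. RARB encodes retinoic acid receptor β, and CYP26A1 encodes an enzyme that breaks down RA. The sequences are from RefSeq on GRCh38.p14, plus strand, and give the 250 bases before the annotated start (chr3:25428013-25428262 for RARB and chr10:93073643-93073892 for CYP26A1, both on that build). The capitals mark a DR5 element, a direct repeat of the receptor's hexamer with a spacer of 5 bases. Each hexamer was searched on both strands, with A or G allowed at the first base and G or T at the third.
RARB promoter: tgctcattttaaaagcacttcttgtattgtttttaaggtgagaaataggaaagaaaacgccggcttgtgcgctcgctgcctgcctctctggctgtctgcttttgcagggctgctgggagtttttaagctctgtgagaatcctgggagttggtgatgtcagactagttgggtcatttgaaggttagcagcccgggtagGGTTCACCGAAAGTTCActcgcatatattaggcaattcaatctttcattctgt
CYP26A1 promoter: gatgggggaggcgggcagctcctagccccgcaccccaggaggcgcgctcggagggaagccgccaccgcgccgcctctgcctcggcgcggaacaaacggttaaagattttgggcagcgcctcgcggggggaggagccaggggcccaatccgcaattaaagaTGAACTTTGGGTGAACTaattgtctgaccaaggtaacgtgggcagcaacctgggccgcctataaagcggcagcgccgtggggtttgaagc
The RARB element ends 36 bases before the annotated start and the CYP26A1 element ends 73 bases before it. A DR5 was present in 31 of 35116 promoter windows of 300 bases in the same table (0.0883%). Of 37 genes on a list of retinoid targets and retinoid metabolism, 27 had such a window, and RARB and CYP26A1 were the ones with a DR5. A match is a description of these letters. Because the lists are on hg19 and the sequences on another build, whether an element lies inside a peak was not determined here.

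The first question was how much of the RARα occupancy in RA coincided with MAML3. Both RARα lists held 560 sites. Of these, 458 (81.8%, 95% Wilson interval 78.4 to 84.8) were in both MAML3 lists, 31 (5.54%) were in 1 MAML3 list and 71 (12.7%, interval 10.2 to 15.7) were in neither. Read from the other side, the 458 shared sites were 9.26% of the 4945 sites held by both MAML3 lists, 676 (13.7%) had a peak in 1 RARα list and 3811 (77.1%) had none. Over single lists, 76.1 to 83.8% of the RARα peaks of a list overlapped a peak of a MAML3 list, with the second RARα list higher (83.8 and 82.4%) than the first (76.6 and 76.1%). Most RARα sites therefore lay on MAML3 sites, whereas most MAML3 sites had no RARα peak. Intervals cover counting error only, and a site missing from a list may still be bound.

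The counts are bounded by the lengths of the lists. When all 4 lists were cut to their 1064 highest-scoring peaks, 297 sites were shared, 184 were RARα-only and 258 were MAML3-only, and 53.5% of the RARα sites of both lists lay in both MAML3 lists. The excess of MAML3-only over RARα-only sites was thus 258 to 184 at equal length, against 3811 to 71 with the full lists. Among the 977 sites with a peak in 1 RARα list, 676 (69.2%) were in both MAML3 lists and 216 (22.1%) in neither. With the first RARα list alone, 769 sites were shared and 212 were RARα-only, and with the second alone, 823 and 148. Without the second MAML3 list the MAML3-only class grew to 6332 sites.

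**Figure D1:**
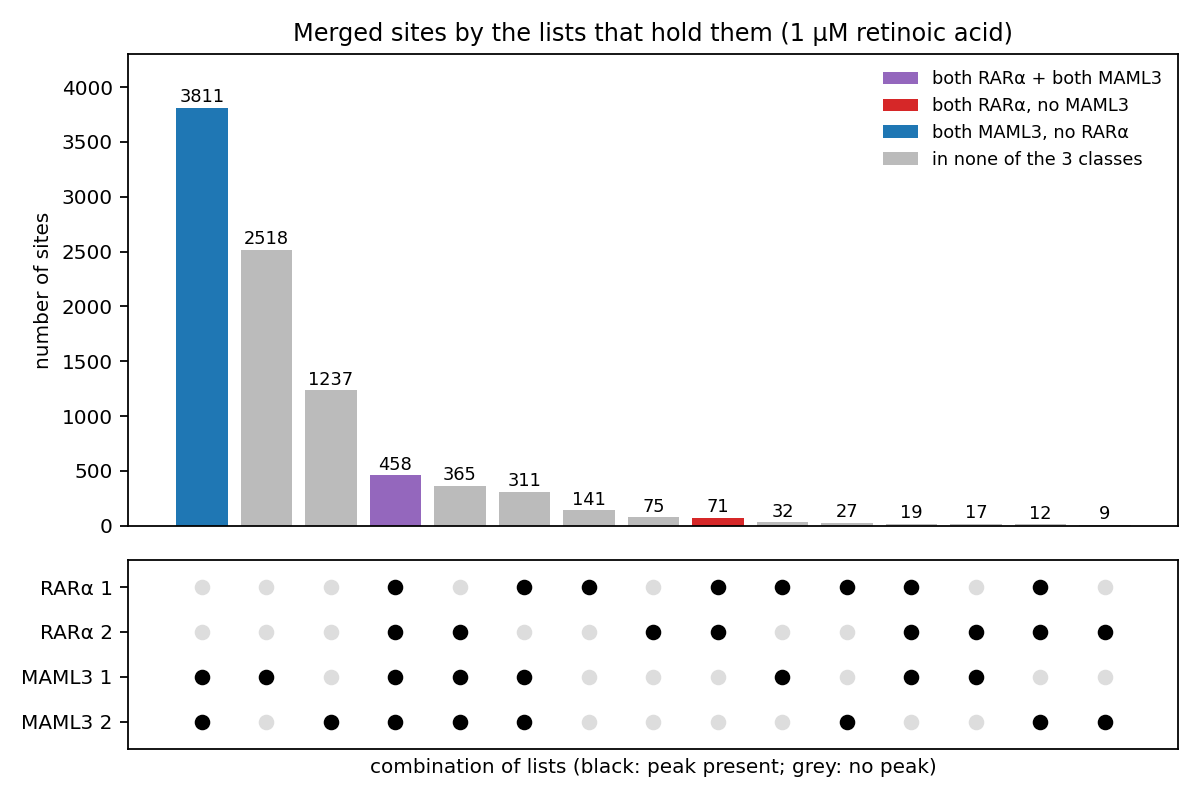
Number of merged sites (bars, from 0) for each combination of the 2 RARα and 2 MAML3 lists from RA-treated cells, with black dots under a bar for the lists that hold a peak. The MAML3-only combination is the most frequent with 3811 sites, the shared class has 458 and the RARα-only class 71.

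With all sites kept, the RARα score varied little with the presence of MAML3 among sites held by both RARα lists. Each deposited peak has 1 score, which was turned into a percentile within its list, where 100 is the highest peak. After ordering the 560 RARα sites by the mean of their RARα percentiles and cutting them into 4 groups of 140 sites, the share in both MAML3 lists was 80.0, 84.3, 81.4 and 81.4% from the lowest group to the highest. The share with no MAML3 peak was 12.9, 10.7, 12.9 and 14.3%. Intervals of the 4 groups overlapped for both shares. The median RARα percentile of shared sites was 70.9 in the first list and 71.1 in the second, and of RARα-only sites 74.6 and 65.6, so the order of the classes differed between the lists. Over both lists the medians were 71.0 for shared and 70.1 for RARα-only sites. Without chromosome ends, chromosome Y and an array on chromosome X described below, they were 70.3 and 62.2, so shared sites then ranked higher. Where 1 RARα list was enough, shared sites ranked higher. Their median was 52.4 against 42.2 for RARα-only sites without the first RARα list, 55.3 against 39.5 without the second, and 52.6 against 41.7 with at least 1 list of each antibody. These percentiles come from the lists that define the classes and are given without a test.

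The MAML3 scores did separate the classes. Shared sites had a median MAML3 percentile of 93.4 in the first list and 93.1 in the second, against 58.9 and 50.4 for MAML3-only sites. Among the highest-scoring 10% of the MAML3 lists lay 59.8 and 61.8% of the shared sites, and 6.38 and 4.09% of the MAML3-only sites. Of the 50 highest MAML3 peaks, 41 in the first list and 42 in the second were shared sites. Among the highest 100 the numbers were 71 and 82, among the highest 500 they were 229 and 250, and among the highest 1000 they were 312 and 345 (31.2 and 34.5%). Shared sites were thus the majority of the highest 100 MAML3 peaks and a minority of the highest 1000.

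**Figure D2:**
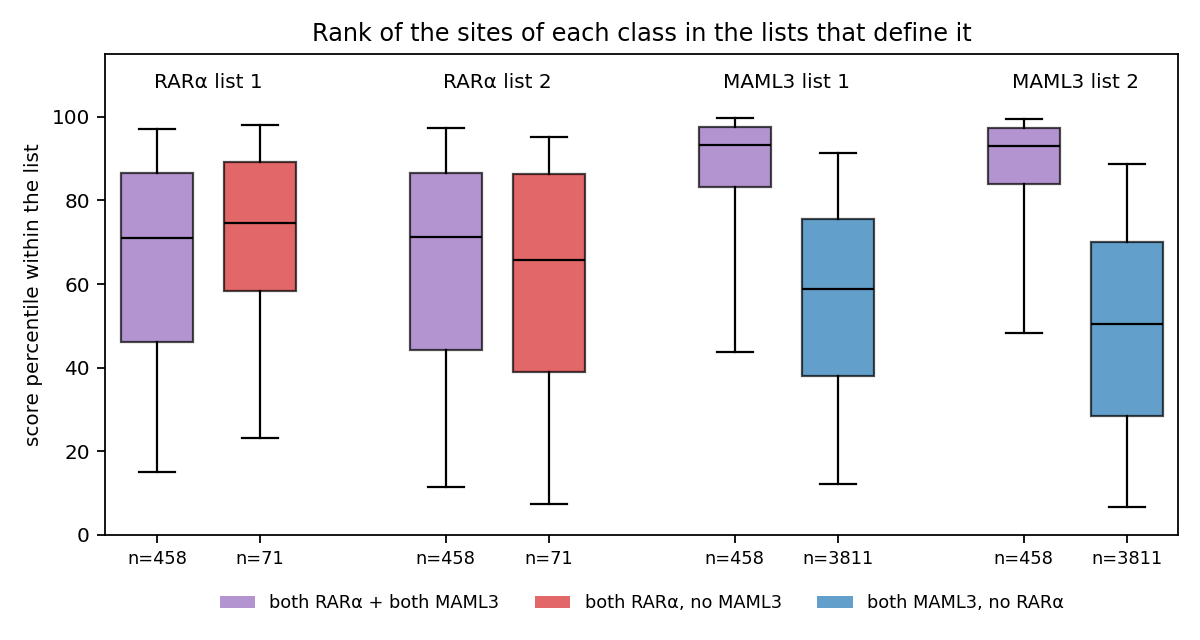
Score percentile within each RA list (100 is the highest peak) for the sites of each class, with boxes from the lower to the upper quartile, a line at the median and whiskers at the 5th and 95th percentiles of the class. The boxes of shared and RARα-only sites overlap in both RARα lists, while shared sites have MAML3 medians of 93.4 and 93.1 against 58.9 and 50.4 for MAML3-only sites.

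Within the shared class, the order of RARα scores was not the order of MAML3 scores. Across the 458 sites, Spearman's rho was 0.88 between the 2 MAML3 lists, 0.58 between the 2 RARα lists and 0.02, 0.16, 0.23 and 0.30 for the 4 RARα and MAML3 pairs. These are descriptions across sites, which share their libraries and were all selected for a peak in each list. Only 29 shared sites had a mean MAML3 percentile under 50. Their median RARα percentile was 81.1, against 65.2 for the other 429. Of the 29, 18 (62.1%) were in the short untreated RARα list, against 19.3% of the 429, and 5 lay in a tandem array on chromosome X described below.

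Peaks of both antibodies stood close to each other at shared sites. The median distance between the RARα and the MAML3 peak centres was 42 to 45.5 bp in the 4 pairs of lists. The distance between centres was 51 bp for the 2 RARα lists and 23 bp for the 2 MAML3 lists, so peaks of different antibodies were no farther apart than those of the RARα replicates. The largest overlap between a RARα and a MAML3 peak at a shared site had a median of 350 bp and was at least 101 bp. The nearest MAML3 peak in RA to any RARα-only site was 583 bp away. At no shared site was the largest overlap near the 1 bp limit of the rule. Overlaps of the other peak pairs at a site were not measured. Asking for an overlap of 50% of the shorter peak changed the shared class to 457 sites, the RARα-only class to 72 and the MAML3-only class to 3770. Merged widths had medians of 550 bp for shared, 350 bp for RARα-only and 450 bp for MAML3-only sites, but a shared site joins peaks of 4 lists and the others of 2, so the widths of the classes are not comparable. Nearly all widths in the MAML3 lists from RA-treated cells are multiples of 50 bp, so these distances carry that step.

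The shared sites with the highest mean percentile illustrate the class. The highest, chr2:67788119-67788934, had scores of 943 and 1066 in the RARα lists and 2401 and 3091 in the MAML3 lists. It was also in all 4 untreated lists, with 895 and 257 for RARα and 142 and 893 for MAML3. Scores of different lists are not on 1 scale, so they show rank within a list and not a change with RA. The second, chr9:87877251-87877852, had RARα scores of 790.0 and 1043 and had 3100 in both MAML3 lists, a value given to 14 peaks of the first and 8 of the second, with 1 peak above it in the first. The third, chr1:12533895-12534599, had RARα scores of 1137 and 901 and MAML3 scores of 1526 and 1790. It was in neither untreated RARα list and in 1 untreated MAML3 list, with a score of 87.5. Of the 10 highest shared sites, this was the one with no untreated RARα peak.

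The untreated lists did not enter the class rule, and the classes were compared on them. They share the antibodies and the cell line with the RA lists. A class chosen for peaks of an antibody was therefore likely to hold untreated peaks of it too. Differences between classes that the rule set apart on that antibody are thus in part set by the rule. In the longer untreated RARα list lay 364 of 458 shared sites (79.5%) and 53 of 71 RARα-only sites (74.6%), against 362 of 3811 MAML3-only sites (9.5%). All merged sites together gave 13.2%. The shares of the RARα classes were not told apart (difference 4.83 percentage points, Fisher's exact test over sites, two-sided, adjusted p = 0.352 over 12 tests). Their intervals were 75.5 to 82.9% for shared and 63.4 to 83.3% for RARα-only sites. In the list of 251 peaks lay 22.1% of shared, 52.1% of RARα-only and 0.446% of MAML3-only sites, where all sites gave 2.47%. Here the shared share was below the RARα-only share (difference -30.1 percentage points, adjusted p = 4.94e-07 by the same exact test). Sites held by both RARα lists in RA were thus mostly in the longer untreated RARα list too, in the shared and in the RARα-only class. These shares do not cover sites held by a single RARα list. Where a single list of an antibody was enough, RARα-only sites exceeded MAML3-only sites in the longer list by 26.5 points, against 65.1 points here. Sites are counting units of the same libraries and not replicates, so each p covers counting error alone.

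The comparison of shared and RARα-only sites in the longer list changed with the length of the lists and with the lists used. The difference became -8.74 points (exact test, adjusted p = 0.202) with the highest-scoring 50% of each list, and 10.6 points (adjusted p = 0.0122) with lists of equal length. It was 16.6 points (adjusted p = 0.000259) without the first RARα list, 29.2 points (adjusted p = 3.32e-14) without the second and 10.0 points (adjusted p = 0.0439) without the first MAML3 list, all by Fisher's exact test. In the short list the difference kept its direction but shrank to -12.1 points without the first RARα list (exact test, adjusted p = 0.000576), to -8.5 without the second (adjusted p = 0.00504) and to -6.31 with at least 1 list of an antibody (adjusted p = 0.0068). In that list the difference without the array and the chromosome ends was -19.5 points (exact test, adjusted p = 0.00272). It was also seen among sites below the median RARα percentile (12.2% of shared against 33.3% of RARα-only, exact test, adjusted p = 0.00474 over 24 tests) and above it (32.0 against 68.4%, adjusted p = 6.74e-05).

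MAML3 was listed at most shared sites without RA. The untreated MAML3 lists held 69.0 and 90.4% of the shared sites, 26.3 and 77.3% of the MAML3-only sites and 14.1 and 25.4% of the RARα-only sites. All merged sites gave 21.5 and 59.0%. Shared and MAML3-only sites were chosen for MAML3 peaks in RA, and RARα-only sites for their absence. Differences from RARα-only sites in the untreated MAML3 lists are therefore in part set by the rule. Because sites share their libraries, each p below covers counting error alone. Shared and RARα-only sites differed by 54.9 and 65.0 points (Fisher's exact test, adjusted p = 1.26e-18 and 2.64e-30). Shared and MAML3-only sites differed by 42.7 and 13.1 points (exact tests, adjusted p = 1.1e-70 and 4.71e-12). RARα-only sites were below MAML3-only sites in the first list (difference -12.2 points, exact test, adjusted p = 0.0217), but without the first MAML3 list this became 5.74 points above (adjusted p = 0.192). Without the second MAML3 list the difference was -1.85 points (exact test, adjusted p = 0.772).

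The difference between shared and MAML3-only sites was smaller at matched MAML3 rank, and in places turned. All 4945 sites of both MAML3 lists were ordered by mean MAML3 percentile and cut into 4 groups of equal size. In the highest group, 76.2% of 362 shared and 70.0% of 513 MAML3-only sites were in the first untreated MAML3 list (adjusted p = 0.0574 over 24 Fisher's exact tests). In the longer list the shares were 94.8 and 97.9% (exact test, adjusted p = 0.0194), with the shared sites lower. In the next group they were 75.0% of 52 and 90.7% of 999 (exact test, adjusted p = 0.00176), again lower for shared sites. In the lower 2 groups, with 28 and 16 shared sites, the first list held more of the shared sites (57.1 against 18.1% and 37.5 against 7.87%, exact tests, adjusted p = 1.16e-05 and 0.00176). In the longer list these groups gave 75.0 against 78.3% (exact tests, adjusted p = 0.704) and 68.8 against 55.9% (adjusted p = 0.512). The excess of shared sites in the longer list over all ranks was therefore not found by test in any of the 4 groups, and in the upper 2 the shared share was lower. For RARα the shared share was higher in every group. In the highest, the longer untreated RARα list held 80.9% of shared and 26.9% of MAML3-only sites (exact test, adjusted p = 2.01e-57). The rule chose shared sites for RARα peaks in RA and MAML3-only sites for their absence. This excess is therefore in part set by the rule, and matching on MAML3 rank does not remove that.

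**Figure D3:**
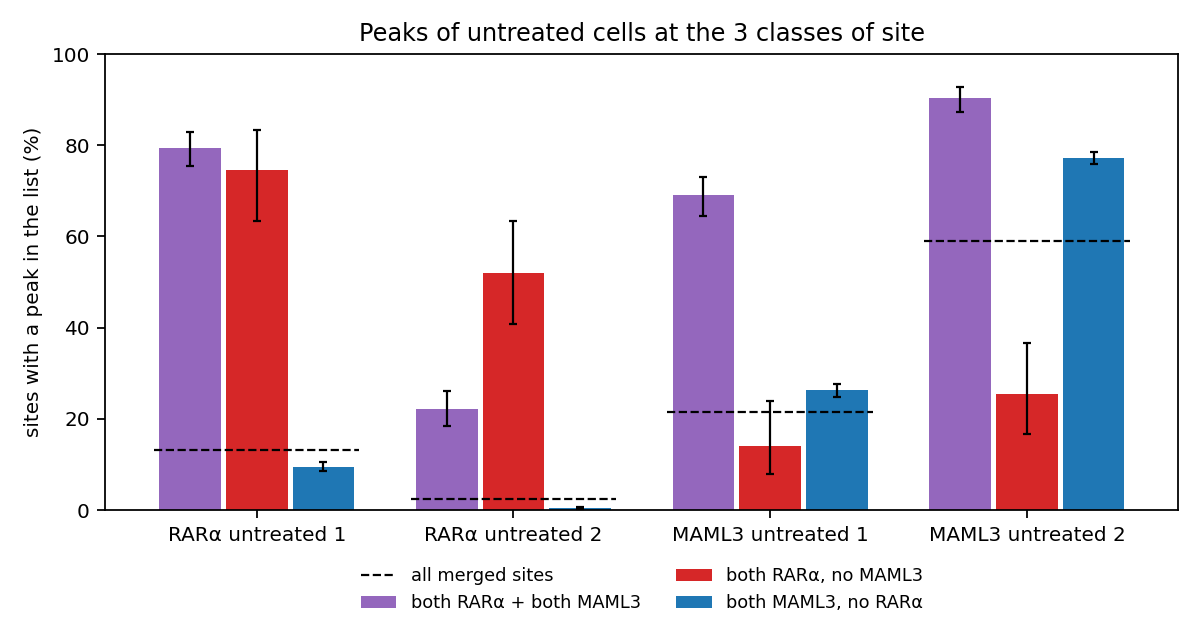
Percent of shared, RARα-only and MAML3-only sites found in each of the 4 untreated lists, with 95% Wilson intervals and the percent of all 9103 sites for reference. RARα-only sites are low in both untreated MAML3 lists (14.1 and 25.4%) and shared sites high (69.0 and 90.4%).

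By combination, 346 shared sites (75.5%) carried a peak in at least 1 untreated list of each antibody, and 73 (15.9%) were in all 4. Another 69 (15.1%) had untreated MAML3 and no untreated RARα, 23 (5.02%) had untreated RARα and no untreated MAML3, and 20 (4.37%, interval 2.84 to 6.65) were in no untreated list. Among RARα-only sites, 36 (50.7%) had untreated RARα alone, 13 (18.3%) were in no untreated list and 22 (31.0%) were in an untreated MAML3 list. The absence of MAML3 that defines the RARα-only class in RA thus did not extend to untreated cells at 22 of 71 sites. These include units of the chromosome X array described below, where reads cannot be assigned to 1 unit, and chr5:11245-11794 near a chromosome end. List by list, the untreated MAML3 lists held 14.1 and 25.4% of RARα-only sites, below the 21.5 and 59.0% of all merged sites. Of the MAML3-only sites, 2601 (68.2%) had untreated MAML3 without RARα and 839 (22.0%) were in no untreated list.

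The shared site in the RARB region, chr3:25469516-25470139, was 1 of the 23 with RARα and no MAML3 in untreated lists. Its RARα scores were 457 and 493 in RA and 590.2 and 206.5 without RA. The MAML3 scores in RA were 155 and 234, and neither untreated MAML3 list had a peak there. The site in the CYP26A1 region, chr10:94837680-94838091, had RARα scores of 176 and 125 and MAML3 scores of 200.2 and 253. It was in no untreated list of either antibody. At both shared sites MAML3 was thus listed in RA alone, and at the RARB site the receptor was listed under both treatments. Elsewhere in the RARB region MAML3 was listed without RA too, with a score of 229 at chr3:25379690-25380005 in the longer untreated list. The lists give no gene names and no hg19 annotation was used here. Gene names in this report place sites by general knowledge of the hg19 map, as background, and no distance to a gene was measured.

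Several of the 20 shared sites in no untreated list stood close together. Of these, 3 lay within chr2:72431471-72922368, a stretch of 490898 bp near CYP26B1, which encodes another enzyme of RA breakdown. The stretch held 5 shared sites, and the untreated lists held 1 and 0 RARα peaks and 0 and 1 MAML3 peaks in it, against 5 and 5 RARα and 7 and 11 MAML3 peaks in RA. The highest of the 20, chr2:72775085-72775731, had RARα scores of 936 and 365 and MAML3 scores of 521 and 1355. The next on the stretch, chr2:72431471-72432034, had 913 and 652 for RARα and 279 and 675 for MAML3. A pair on chromosome 1 (chr1:110600695-110601249 and chr1:110605150-110605694) and a pair on chromosome 18 (chr18:57126973-57127572 and chr18:57223573-57224072) were also among the 20. Near DHRS3, which encodes a retinal reductase that is a known RA target, 3 shared sites were found, including chr1:12533895-12534599. Each of the 3 was in 1 untreated list.

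Shared sites had more MAML3 neighbours than the other classes within 10 kb and 100 kb, but not within 1 kb. Within 1 kb of another site held by both MAML3 lists lay 8.45% of RARα-only, 1.53% of shared and 1.47% of MAML3-only sites. Within 10 kb the shares were 26.8, 38.2 and 21.5%. The nearest other site held by both MAML3 lists was at a median of 20125 bp from a shared site, 60245 bp from a MAML3-only site and 255415 bp from a RARα-only site. Within 100 kb of another shared site lay 139 shared sites (30.3%), and within 500 kb 203 (44.3%). Windows were described after their values were seen, and have no test. The window with the most shared sites, chr10:43366708-43552079, held 6 in 185372 bp near RET, which encodes a receptor tyrosine kinase of the neural crest and is a known RA-responsive gene in neuroblastoma cells. Its highest site, chr10:43551530-43552079, had RARα scores of 571 and 716 and MAML3 scores of 1267 and 1401. In contrast to the CYP26B1 stretch, the RET stretch held 5 and 1 untreated RARα peaks and 5 and 6 untreated MAML3 peaks.

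**Figure D4:**
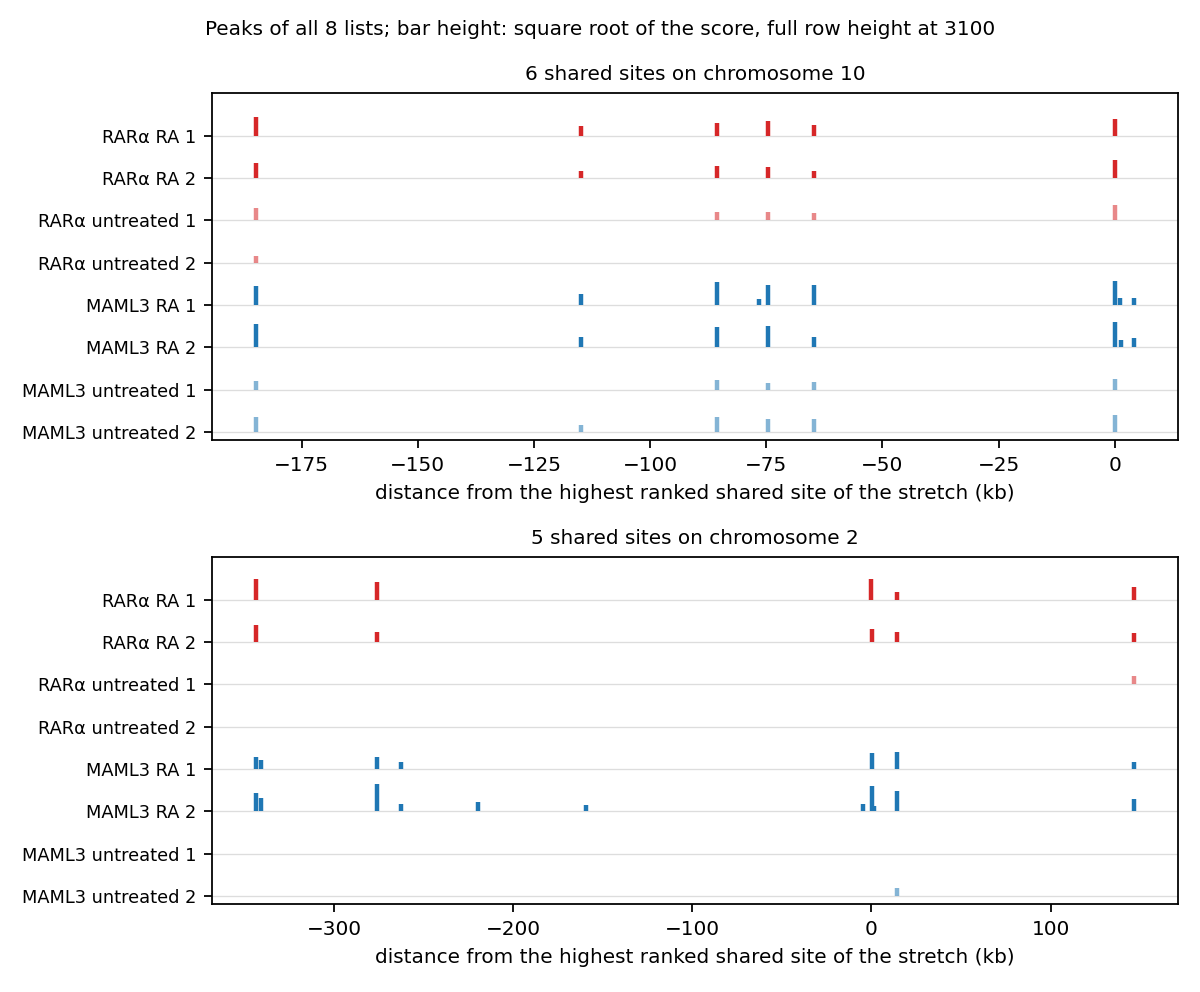
Peaks of the 8 lists (rows) along the stretches on chromosome 10 (RET) and chromosome 2 (CYP26B1), by distance in kb from the highest ranked shared site of each and with a flank on both sides, where the bar height is the square root of the score. Between its outer shared sites the chromosome 2 stretch has 1 and 0 untreated RARα peaks, and the chromosome 10 stretch has 5 and 1.

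Regions of the genes for adrenergic neuroblastoma regulators held shared sites amid many MAML3 sites. Around HAND2, a neural crest transcription factor, 3 shared and 13 MAML3-only sites were found. The highest of these shared sites, chr4:174990900-174991561, reached 3100 in all 4 MAML3 lists and had RARα scores of 409 and 575 in RA and 592 and 189 without. Around TBX2, a T-box transcription factor, 4 shared and 6 MAML3-only sites were found. The highest near TBX2, chr17:59222219-59222871, had RARα scores of 307 and 547 and MAML3 scores of 2316 and 1972, and was in all 4 untreated lists. Near TBX2 lay also chr17:59142685-59143171, with RARα scores of 298 and 332 and MAML3 scores of 124 and 160, which was in no untreated list. Sites of either kind thus stood within 1 region. Neither region held a RARα-only site. The region of RARA itself held no shared site but 2 sites in 1 RARα list and both MAML3 lists. The stronger, chr17:38463251-38463720, had a RARα score of 236 in the first RA list and of 431 and 152 in the untreated lists. The region of NRIP1, another known RA target, had no peak in any of the 8 lists. The regions differ in length and were chosen after values were seen, so the counts are descriptions.

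A stretch of chromosome 17, chr17:18965169-19093671, held shared sites that ranked high for RARα and lower for MAML3. There were 5, with RARα scores between 591 and 973 in the first list and between 312 and 758 in the second. The MAML3 scores in RA ran from 93.7 to 293 and from 151 to 252, where the list medians were 142.1 and 140.3. The untreated RARα list of 251 peaks held 5 peaks there. This differs from the RET stretch, where the MAML3 scores of the 6 sites ran from 258 to 1267 and from 205 to 1401, and the short list held 1 peak.

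RARα-only sites were placed differently on the chromosomes. Chromosome 19, which is rich in genes, held 8 of the 71 (11.3%), against 3 of 458 shared sites (0.655%), 10 of 3811 MAML3-only sites (0.262%) and 0.78% of all sites. These chromosomes were singled out after the values were seen, and no test was made. None of the 8 sites on chromosome 19 had a peak in any of the 4 MAML3 lists. The highest by mean percentile, chr19:14117161-14117522, had RARα scores of 216 and 287 in RA and 306 and 239 without. Chromosome 19 sites were of middling rank otherwise, with mean percentiles from 14.9 to 83.4. Chromosome 20 held 4 RARα-only sites (5.63%), against 1.09% of shared sites. Of the 13 RARα-only sites in no untreated list, 3 lay on chromosome 20 and 2 on chromosome 19. The highest of the 13, chr7:106499447-106499833, had RARα scores of 219.6 and 156 and a mean percentile of 73.4, so these were not the strongest sites of the class.

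The highest RARα-only sites were a mixed group, many of them from 1 repeat. Of the 10 highest, ranks 3 to 7 and 10 were units of the chromosome X array described below. The first, chr5:11245-11794, lies near the end of the chromosome and reached 3100 in all 4 RARα lists. It also reached 3100 in 1 untreated MAML3 list, and a MAML3 peak of the second RA list with a score of 2679 was 896 bp away. The second, chr17:45973185-45973721, had RARα scores of 850.1 and 747 in RA and 1136 and 399 without, and was in no MAML3 list of either treatment. Another, chr21:47604262-47604761, had RARα scores of 412 and 457 in RA and 363 and 85.7 without, also with no MAML3 peak. On chromosome 1, chr1:16993195-16993544, chr1:17066995-17067494 and chr1:28975045-28975494 had RARα scores of 438 and 301, 389.8 and 368, and 366 and 206, and no MAML3 peak in any list. They lie where genes of the U1 and U11 small nuclear RNAs, parts of the spliceosomes, are known. On either side of the first 2 lay shared sites, chr1:16840395-16840894 and chr1:17222445-17222994. Their RARα scores were 715 and 399, and 818 and 384, with MAML3 scores in RA of 145 and 136, and 142 and 170. A further RARα-only site, chr1:145969193-145969538, had an untreated MAML3 score of 104. Absence of MAML3 was thus not shared by all RARα sites around the first 2 or in the class on chromosome 1. U1 genes have near-identical copies, and the values at these sites are uncertain. How such reads were treated is not stated by the labels.

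A tandem array on chromosome X held 9 of the 71 RARα-only sites, which are all of that class on the chromosome. The array, chrX:114960359-115004810, held 16 sites at a median spacing of 2975 bp (from 2225 to 3025 bp). RARα was in both RA lists at 15 of them. The RARα lists had 16 and 15 peaks there in RA and 16 and 16 without, and the MAML3 lists 6 and 5 in RA and 6 and 11 without. All 4 RARα lists thus covered nearly every unit, including the list of 251 peaks, while MAML3 was listed at some. The 9 RARα-only units had RARα scores of 452 to 928 in the first RA list and 303 to 656 in the second. The 5 shared units had overlapping RARα scores, 573 to 975 in the first list and 362 to 654 in the second, and their MAML3 scores in RA were 81.5 to 131 and 93.4 to 116.5, close to the lowest scores of about 70 in those lists. This position is known as the macrosatellite DXZ4, whose units are near-identical copies, so reads cannot be assigned to 1 unit with certainty. Without the array and the outer 100 kb of the chromosomes, 57 RARα-only and 450 shared sites were left, and 84.1% of the RARα sites lay in both MAML3 lists.

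**Figure D5:**
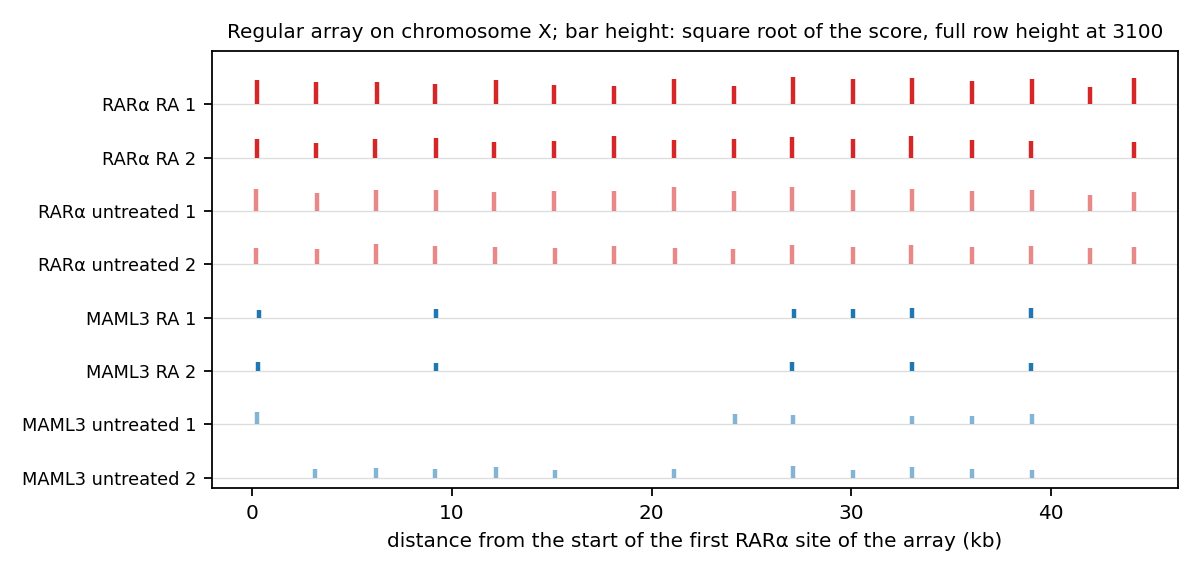
Peaks of the 8 lists (rows) at the 16 regularly spaced sites of the chromosome X array, by distance in kb from the start of the first site, where the bar height is the square root of the score. RARα peaks recur at nearly every unit under both treatments, and MAML3 peaks appear at some units with low scores.

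A few RARα-only sites stood beside a MAML3 peak, which was strong at some of them. The median distance from a RARα-only site to the nearest MAML3 peak in RA was 152345 bp, with 7 sites within 1 kb and 22 within 10 kb. The 7 include chr5:11245-11794 at the chromosome end. They also include chr12:120730727-120731032, whose neighbour had MAML3 scores of 120 and 135 in RA, below the list medians of 142.1 and 140.3. Of the 7, 6 carried an untreated MAML3 peak at the RARα position itself. At chr11:83575636-83576232, RARα scored 320.5 and 601 in RA and MAML3 scored 749 and 1649.9 in untreated cells. In RA no MAML3 peak was listed there, and the highest MAML3-only site, chr11:83574363-83574662, with 3100 in both lists, was 973 bp away. That MAML3-only site was in no untreated list. At chr7:65590997-65591300 untreated MAML3 scores were 299.7 and 437, with no MAML3 peak there in RA, and a MAML3-only site, chr7:65590001-65590395, was 601 bp away with scores of 1707 and 1176 in RA. This neighbour was also in the longer untreated MAML3 list, with a score of 417, so that list held both positions. These pairs were picked after their values were seen.

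The highest MAML3-only sites otherwise resembled each other. Of the first 10, 8 were in the longer untreated MAML3 list with scores above 400, and 3 carried a RARα peak in the longer untreated RARα list. The second, chr21:29629701-29630373, had MAML3 scores of 2667 and 1967 in RA and 404 and 1448 without, and no RARα peak in any list. The third, chr14:53300806-53301433, had 1765 and 1391 in RA and a RARα score of 150.0 in untreated cells only. Lack of RARα in both RA lists therefore did not mean lack of RARα in all lists. In the class as a whole, 371 sites (9.73%) were in an untreated RARα list.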

How the data were processed

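ChIP-seq peaks of 8 libraries from SK-N-SH cells were used, 1 deposited list per library. The 2 input samples were not analysed here. Reads were handled with bedtools, MACS and BWA 0.5.9 on hg19, per the submitters' processing notes. Libraries were amplified for 15 cycles, per the labels' protocols. Each deposited list has a position and 1 number per peak, which is treated as a score of the authors. No source used here gives the caller's threshold, its use of the input, or the read depth, so depth sets no precision here. Lists were called per sample, per the labels.

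The scores were ranked within a list as percentiles and never compared as levels between lists. Sites were merged and classed in Python 3.11.15 with numpy 2.4.6, pandas 2.3.3 and scipy 1.17.1, and figures were drawn with matplotlib 3.10.9. The merging was tested on simulated lists. Classes were compared on the untreated lists by two-sided Fisher's exact tests, adjusted by Benjamini-Hochberg over 12 tests and a threshold of 0.05. Another 24 tests within score ranks were added after the data were seen. The smallest two-sided p of an exact permutation test of 2 against 2 libraries is 0.33, so conditions were not tested over libraries.

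Named sites are the 10 per class with the highest mean percentile, of which the text gives some. The members and lists were chosen with earlier results of these data known. The stretches, the array, chromosome comparisons, close pairs, the DR5 search in promoters and the regions named by genes were chosen after values were seen. No hg19 genome or annotation was used here, so the planned tests of promoters, of motifs in sites and of gene lists were not run, and the gene names follow general knowledge of the map. The alternatives were other overlaps, shorter lists, sites in at least 1 list, each list left out, and, added later, the removal of chromosome ends (outer 100 kb), chromosome Y and the array.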

Additional observations from a re-analysis of the deposited data

How the results depend on the processing

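The numbers of sites changed with the lengths of the lists and with the number of lists that a class required. With the highest-scoring 50% of each list, 226 sites were shared and 2041 MAML3-only, and 71.5% of RARα sites lay in both MAML3 lists. At equal length the numbers were 297 shared, 184 RARα-only and 258 MAML3-only, and 53.5%. With at least 1 list of an antibody they were 1250, 287 and 7566. Leaving out each list gave 470 to 823 shared, 84 to 212 RARα-only and 4122 to 6332 MAML3-only sites, and 71.8 to 85.0%. An overlap of 50% of the shorter peak, peaks within 1 kb, and no chromosome ends, Y or array kept all 3 numbers within 1.5 times.

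Median RARα percentiles of shared sites were 70.6 with peaks within 1 kb, 65.3 with the highest-scoring 50%, 72.1 at equal length, 52.6 with at least 1 list and 70.3 without ends and array. Those of RARα-only sites were 41.7 with at least 1 list and 62.2 without ends and array. Median MAML3 percentiles of shared sites were 91.9, 77.5, 86.2 and 93.6 with the highest-scoring 50%, equal length, at least 1 list and no ends or array, and of MAML3-only sites 45.1 and 42.9 at equal length and with at least 1 list. Leaving out each list gave 52.4 to 71.0 and 39.5 to 69.8 for RARα, and 88.1 to 92.9 and 42.2 to 57.1 for MAML3. Shared sites were above RARα-only sites in RARα when either RARα list was left out (52.4 against 42.2 and 55.3 against 39.5). In each of these settings shared sites had the higher MAML3 median.

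Of 120 values for the 12 differences on untreated lists, 109 kept their direction and their side of the threshold. With the highest-scoring 50%, shared minus RARα-only in the longer RARα list was -8.74 points, RARα-only minus MAML3-only in the first MAML3 list -9.45, and shared minus MAML3-only in the longer MAML3 list -2.63. At equal length the first of these was 10.6 and the last 3.26, and with at least 1 list the first was 23.3. Leaving out each list moved the first from 5.74 to 29.2 and the second from -23.3 to 5.74. The cause was not tested.

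No paired analysis was possible because the results come from lists of peaks, with no test across samples, and replicate numbers do not tie libraries of different antibodies. Depth is unknown, so a short list and few bound sites cannot be told apart.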
